A study of Mus musculus with 5 samples.

Results

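The genes described here encode receptors and bridging molecules with which macrophages recognise and take up dying cells. They are 9 of the 21887 protein-coding genes of the reference table: Mertk, Axl, Tyro3, Gas6, Pros1, Timd4, Stab1, Mfge8 and Lrp1. They were listed by name for this function, with earlier results of these data known. Every deposited peak inside a gene's span or within 50 kb of it was assigned to that gene. The peaks come from chromatin immunoprecipitation followed by sequencing (ChIP-seq) of mouse bone marrow macrophages on a C57Bl/6 background. The cell type label gives in vitro polarization to M2, the alternative state, but each title reads M0, and which of these applies could not be settled here. Of the 5 samples, 2 were precipitated with an antibody to the transcription factor c-Maf, 2 with normal rabbit IgG as isotype control, and 1 was input chromatin. The libraries of each antibody are numbered 3 and 4, which the design text calls biological replicates, and the input is numbered 4. No label says that libraries of the same number came from the same animal. A peak list measures no transcript, so the labelled cell type was not checked against marker genes.

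A cell that dies by apoptosis exposes phosphatidylserine on its outer membrane, and this lipid serves as a signal for uptake. Timd4 and Stab1 encode receptors that bind it directly. Mertk, Axl and Tyro3 form the TAM family of receptor tyrosine kinases, which reach it through either or both of the soluble proteins encoded by Gas6 and Pros1. Mfge8 encodes another bridge, to integrins, and Lrp1 encodes a large endocytic receptor that takes part in uptake of cells marked by calreticulin. c-Maf is a basic leucine zipper factor that binds Maf recognition elements, whose arms contain the letters TGCTGA.

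The 4 peak lists were called separately, each against the same input, with a permissive p-value cut-off of 0.01. c-Maf antibody libraries 3 and 4 gave 23434 and 17620 peaks, and isotype libraries 3 and 4 gave 58732 and 15568. Between 21655683 and 22017759 tags were left per antibody library after removal of duplicates. Only 0.415% to 3.06% of the peaks of a list passed a q-value of 0.05. Isotype library 3 stands apart, with the longest list and the lowest share of peaks at that q-value. Its fragment length was 53 bp, against 63 and 60 bp for c-Maf antibody libraries 3 and 4 and 56 bp for isotype library 4. Near the genes described here its peaks had as few as 3 tags at the summit. The fewest were 4 in each c-Maf antibody list and 5 in isotype library 4. Peak counts near these genes thus did not share a lowest number of tags, and the cause of this was not tested. With 2 libraries against 2, no exact two-sided permutation test over libraries can give a p under 0.333, so the values below are descriptions.

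No peak of any list overlapped the promoter of any of the 9 genes, taken as 250 bases before to 50 bases after the gene start. Over all 32851 promoters of the reference table, 0.578% and 0.353% held a peak of c-Maf antibody libraries 3 and 4, and 0.743% and 0.225% held a peak of isotype libraries 3 and 4. An absence from 9 promoters is therefore near the background. The peak nearest to a gene start was an isotype peak of number 3, with its summit 3352 bp from the start of Pros1. The nearest c-Maf antibody peak had its summit 11967 bp from the start of Timd4.

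The stretches before the starts of Mertk, Timd4 and Stab1 are printed to show what these promoters hold. Mertk is the gene with the region shared by both c-Maf antibody libraries, and Timd4 and Stab1 are the members with TGCTGA, or TCAGCA on the other strand, in the 300-base promoter. Capitals mark those letters. Each stretch is read 5′ to 3′ on the strand of the gene and ends at the base before the gene's span (RefSeq, GRCm38.p6, the assembly of mm10).
Mertk, chr2:128698665-128698914, + strand: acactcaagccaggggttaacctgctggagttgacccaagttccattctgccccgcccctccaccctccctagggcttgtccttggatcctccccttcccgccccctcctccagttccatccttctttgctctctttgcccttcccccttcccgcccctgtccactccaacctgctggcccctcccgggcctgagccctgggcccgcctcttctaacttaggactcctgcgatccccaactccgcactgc
Timd4, chr11:46810549-46810785, + strand: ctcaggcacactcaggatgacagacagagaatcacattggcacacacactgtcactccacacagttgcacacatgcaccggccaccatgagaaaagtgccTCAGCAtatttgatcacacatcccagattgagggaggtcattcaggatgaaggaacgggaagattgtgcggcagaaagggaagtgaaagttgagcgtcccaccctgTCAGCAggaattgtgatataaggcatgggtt
Stab1, chr14:31168652-31168891, - strand: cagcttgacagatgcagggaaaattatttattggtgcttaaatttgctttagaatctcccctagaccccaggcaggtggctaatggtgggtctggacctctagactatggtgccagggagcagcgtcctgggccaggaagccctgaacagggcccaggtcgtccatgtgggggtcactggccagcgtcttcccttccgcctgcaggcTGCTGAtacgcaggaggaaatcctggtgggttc

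In the Mertk stretch no match was found, and its GC content was 63.6%. In Timd4 the letters stood at positions -150 to -145 and -44 to -39, with the start as position 0. The second match was preceded by a G and so also fitted TGCTGAC read on the other strand. In Stab1 they stood at -43 to -38. At least 1 TGCTGA on either strand occurred in 19.5% of all promoters, so 2 of 9 is close to the background. TGCTGAC, which contains it, occurred in 4.67%. The AP-1 core TGACTCA, found in 5.20%, and the full palindromic recognition elements T-MARE and C-MARE, found in 1 and 0 of all promoters, were in none of the 9. A match is a description of letters and not a bound site, and no peak lay over any of these stretches. The sequences under the peaks were not analysed here.

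The windows of the 9 genes together held 44 peaks. c-Maf antibody library 3 had 12, c-Maf antibody library 4 had 5, isotype library 3 had 23 and isotype library 4 had 4. At each list's rate over the assembled chromosomes, windows of this total length (1.32 Mb) would hold 11.3, 8.45, 28.4 and 7.46 peaks. The 95% exact Poisson intervals of the 4 counts were 6.20 to 21.0, 1.62 to 11.7, 14.6 to 34.5 and 1.09 to 10.2, so each held the count at its list's own rate. The high count of isotype library 3 went with its list length. When each list was reduced to its 15568 strongest peaks, the 4 counts were 8, 5, 5 and 4.

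**Figure D1:**
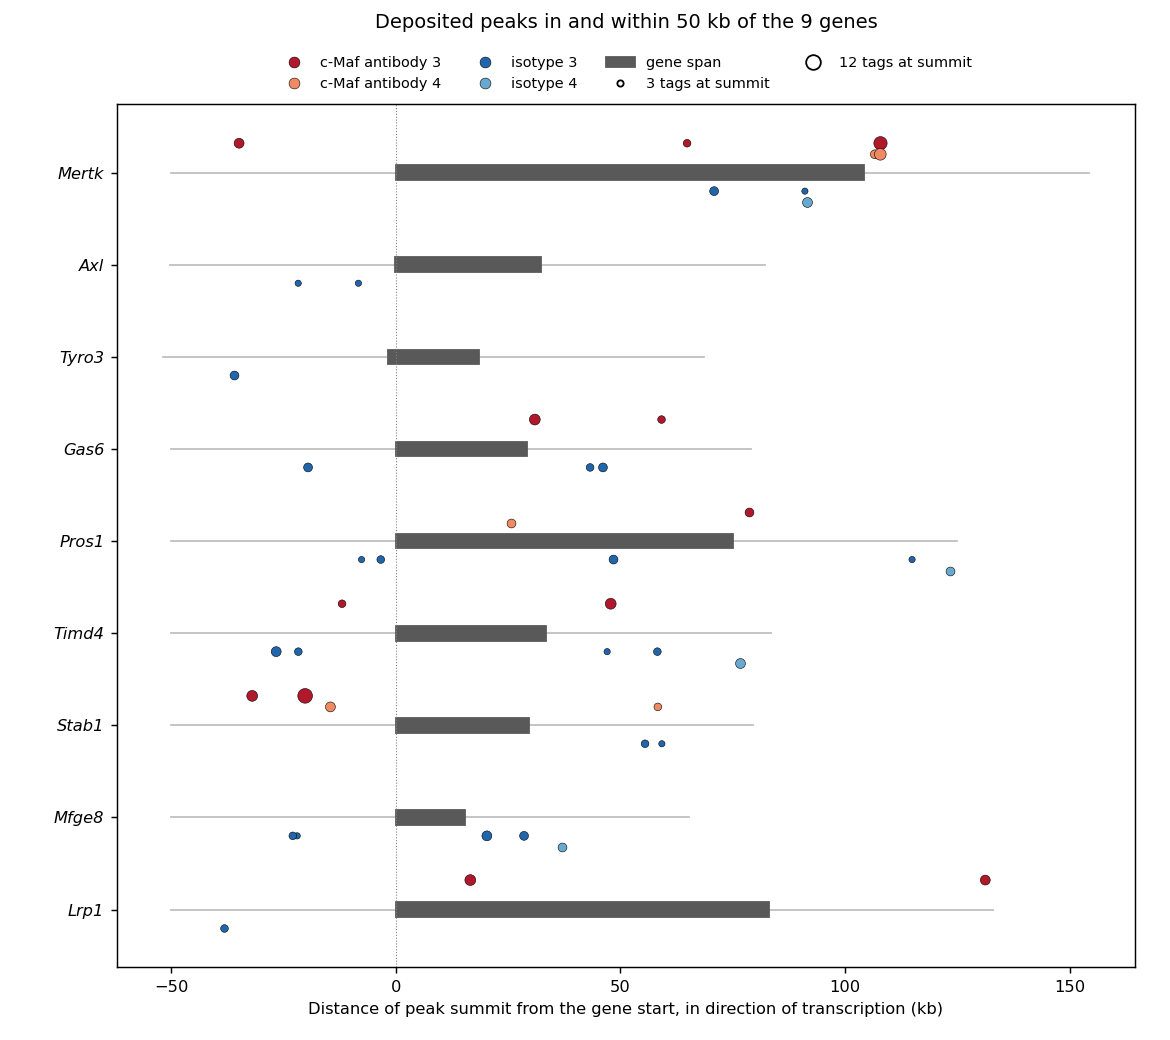
Summit positions of the 44 deposited peaks around the 9 genes, in kb from the gene start along the direction of transcription. Grey boxes are gene spans, thin lines reach 50 kb beyond them, colours give the library and the point area rises with the tags at the summit, from 3 to 12. The c-Maf antibody peaks of both numbers coincide beyond the end of Mertk, and Axl, Tyro3 and Mfge8 have none.

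Genes differed in which antibody gave more peaks. The c-Maf antibody libraries together had more peaks than the isotype libraries at 3 genes, Mertk (5 against 3), Stab1 (4 against 2) and Lrp1 (2 against 1). They had fewer at the other 6. Among all protein-coding genes, 22.9% had more and 59.4% had fewer. The counts of isotype library 3 at the members include peaks of 3 tags, fewer than any peak of the other lists there had. By library, 6 genes had a peak of c-Maf antibody library 3 (background 66.7% of all genes), 3 of library 4 (53.8%), 9 of isotype library 3 (85.0%) and 4 of isotype library 4 (47.3%). A peak of either c-Maf antibody library was found at 6 of the 9 genes, where the background is 81.3%. At 3 of them, Mertk, Pros1 and Stab1, both libraries had at least 1 peak somewhere in the window (background 39.3%). Both isotype libraries had a peak at 4 genes, Mertk, Pros1, Timd4 and Mfge8 (background 42.5%). The members' shares lie near these background shares.

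**Figure D2:**
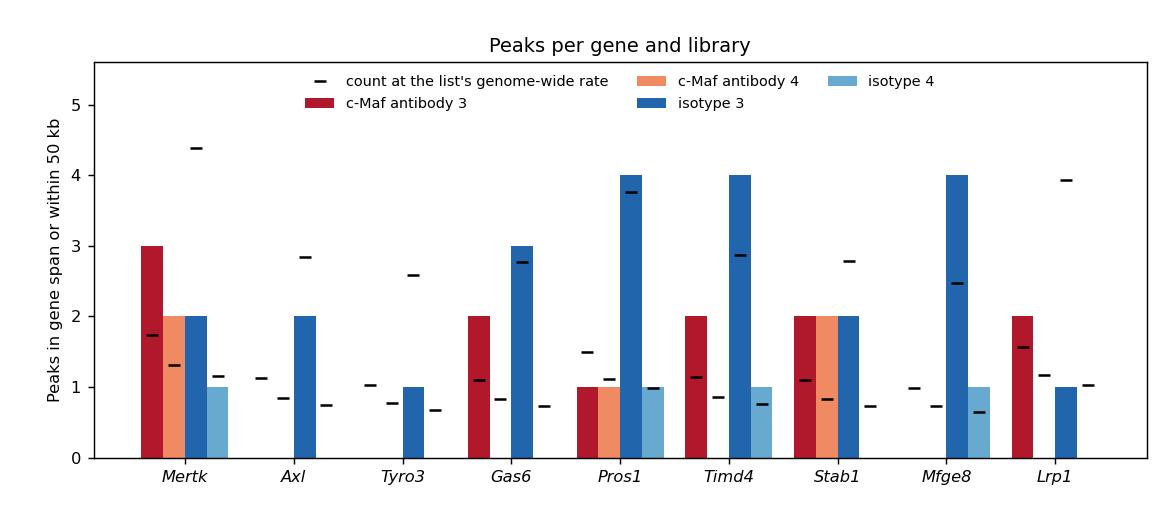
Number of deposited peaks in the span or within 50 kb of each gene, by library. Black dashes give the count at that list's rate over the assembled chromosomes. Mertk has 3 and 2 c-Maf antibody peaks against 1.74 and 1.31 at those rates, and 2 and 1 isotype peaks against 4.39 and 1.15. Stab1 has 2 and 2 c-Maf antibody peaks against 1.11 and 0.83, and 2 and 0 isotype peaks against 2.79 and 0.73. Axl, Tyro3 and Mfge8 have no c-Maf antibody peak.

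Mertk was the 1 member with a c-Maf-only region, that is, overlapping peaks of both c-Maf antibody libraries with no isotype peak. Such a region lay within 50 kb of 3.17% of all protein-coding genes, and no member had an isotype-only region, which 1.45% of genes had. The Mertk window was 204.2 kb, and the median window was 132.4 kb for the members and 117.2 kb for all protein-coding genes. Within 5 kb the shares of all genes were 1.22% and 0.585%, and Mertk was again the member with a c-Maf-only region. Because the members were chosen with earlier results of these data known, these shares are no test of the set. Mertk, on chromosome 2 at 128698915 to 128803162, encodes the TAM receptor typical of tissue macrophages. The region, at chr2:128806695-128806907, was 213 bp wide and began 3533 bp beyond the 3′ end of the gene. It lay in no gene, and the next gene on that side, Tmem87b, began 11.4 kb farther on. The nearest isotype peak was 16291 bp away.

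The evidence for the Mertk region was uneven between the replicates. In c-Maf antibody library 3 the peak held 10 tags at its summit (95% exact Poisson interval 4.80 to 18.4), with a fold enrichment over input of 5.89 and a −log10 q of 2.18. In library 4 it held 8 tags (3.45 to 15.8), with a fold enrichment of 2.96 and a −log10 q of 0.0. The intervals of the tag counts overlapped. The local input level behind these folds was 0.82 tags at the summit of library 3 and 2.00 tags at the summit of library 4, with the summits 42 bp apart. By −log10 p the peaks stood at percentiles 98.9 and 19.2 of their own lists. Among all 491 c-Maf-only regions the folds of the Mertk region stood at percentiles 87.6 and 9.78, beside medians of 4.31 and 4.02.

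The peaks of the Mertk region shared 73 bp, which was 49.0% of the peak in library 3 and 53.3% of that in library 4. The region was therefore lost when 50% of each peak had to be shared. It was also lost at a q-value of 0.05 or a p-value of 1e-05, because library 4 had no peak there at either level. It was kept when sharing meant summits within 200 bp, which the gap of 42 bp between the summits fixed in advance. It was also kept at equal list lengths, a mild cut for library 4, from 17620 to 15568 peaks.

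Library 4 had another c-Maf antibody peak close by, 2347 bp beyond the end of Mertk, with 5 tags and a fold enrichment of 3.81. Library 3 had no peak that overlapped it. Inside the gene the antibodies were not separated. c-Maf antibody library 3 had a weak peak 64.8 kb from the start, with 4 tags and a fold of 3.01. Isotype library 3 had peaks 70.9 kb and 91.1 kb from the start, with folds of 3.85 and 2.77, and isotype library 4 had a peak at 91.4 kb, with a fold of 4.76. The isotype peaks at 91.1 kb and 91.4 kb were 344 bp apart and did not overlap. A further peak of c-Maf antibody library 3 lay 34.9 kb before the start, inside Anapc1, with a fold of 4.35.

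**Figure D3:**
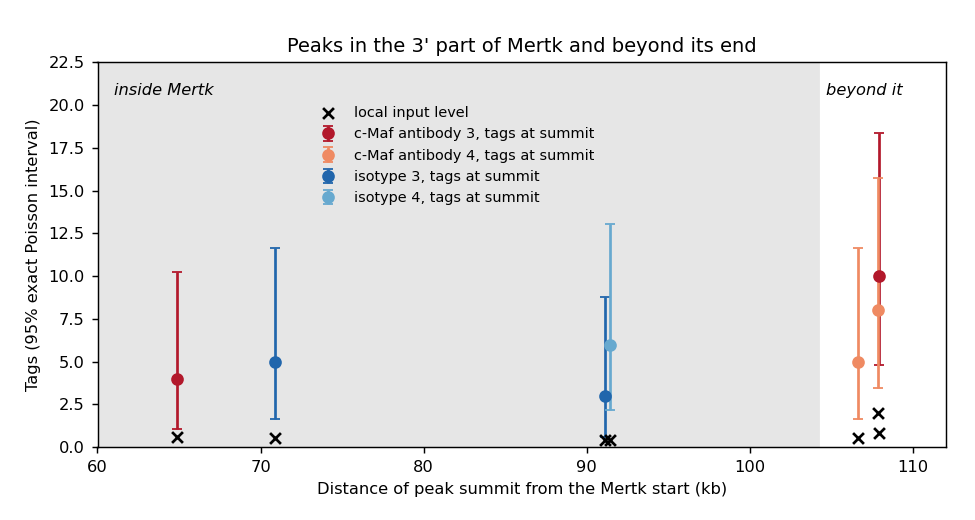
Tags at the summits of the peaks more than 60 kb from the Mertk start, by distance in kb, with 95% exact Poisson intervals. Crosses, labelled local input level, give the input level behind each deposited fold, which can be a genome-wide floor. Beyond the gene's end the peaks of both c-Maf antibody libraries reach 10 and 8 tags at the same place, over input levels of 0.82 and 2.00, and no isotype peak lies there.

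Axl and Tyro3, the other TAM receptor genes, had no c-Maf antibody peak in the span or within 50 kb, as was true of 18.7% of all genes. At Axl (chromosome 7, 25756500 to 25788924) isotype library 3 had 2 peaks of 3 tags each, 8.09 kb and 21.5 kb from the gene, the second inside Cyp2s1. No c-Maf antibody peak near a member had fewer than 4 tags. At Tyro3 (chromosome 2, 119797740 to 119818104) isotype library 3 had 1 peak of 5 tags, 34.3 kb from the gene and 535 bp from Rpap1. The c-Maf antibody peaks nearest to Axl lay 86.1 kb (library 3) and 102.9 kb (library 4) away, and those nearest to Tyro3 lay 105.5 kb and 201.3 kb away. Among the TAM receptor genes, c-Maf antibody peaks were thus seen within 50 kb of Mertk alone. The Mertk window was the longest, at 204.2 kb against 132.4 kb for Axl and 120.4 kb for Tyro3. At the genome-wide rates of c-Maf antibody lists 3 and 4, Axl would hold 1.13 and 0.85 peaks and Tyro3 1.03 and 0.77.

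The genes of the TAM bridging proteins had no region shared by the c-Maf antibody libraries. Gas6 encodes a vitamin K-dependent protein that binds all TAM receptors, and lies on chromosome 8 at 13465374 to 13494535. c-Maf antibody library 3 had a peak of 7 tags 1.73 kb beyond the 3′ end of Gas6, inside the neighbouring gene Tmem255b, with a fold of 4.50 and a rank at percentile 85.6 of its list. Its other peak near Gas6, of 4 tags, lay 29.9 kb away with a fold of 3.00, and its summit was 85 bp from the start of Tmem255b. Library 4 had no peak in the window. Isotype library 3 had 3, with folds of 3.46 to 4.15.

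Pros1 encodes protein S, which is also an anticoagulant cofactor, and lies on chromosome 16 at 62854307 to 62929346. c-Maf antibody library 4 had a peak of 5 tags inside the gene, with a fold of 3.71. c-Maf antibody library 3 had a peak of 5 tags 3.49 kb beyond its end, with a fold of 2.93. These peaks were 52813 bp apart, so having a peak in each replicate did not mean the same place. That was usual in these data. When overlapping peaks were joined, 42 of the 43 regions near the members came from a single list (97.7%), against 97.5% of all regions. Isotype library 3 had 4 peaks in the window and isotype library 4 had 1, with folds of 2.77 to 4.14, and 1 of them was inside the gene.

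At the receptors that bind phosphatidylserine directly the picture differed between genes. Stab1 encodes stabilin-1, a scavenger receptor, and lies on chromosome 14 at 31139017 to 31168651. Its window held the peak with the most tags at the summit of all 44, at chr14:31188782-31188884, with 12 tags in c-Maf antibody library 3 (95% exact Poisson interval 6.20 to 21.0). The fold was 7.20, the −log10 q was 4.38 and the rank was at percentile 99.8 of its list. This peak lay 20.1 kb before Stab1 and inside Nisch, a neighbouring gene, 17995 bp from the Nisch start. No peak of c-Maf antibody library 4 overlapped it.

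The peak of library 4 nearest to it, also inside Nisch, was 5554 bp away, held 6 tags and had a fold of 3.46, at percentile 25.5 of its list. A further library 3 peak inside Nisch had 7 tags and a fold of 3.90. The isotype peak nearest to the peak of 12 tags was 30470 bp away. On the other side of Stab1 a library 4 peak of 4 tags and 2 isotype peaks of 3 and 4 tags lay inside Pbrm1 and Smim4. The c-Maf antibody peak there was 847 bp from an isotype peak. Stab1 itself held no peak of any library.

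Timd4, which encodes TIM-4, lies on chromosome 11 at 46810786 to 46844333, and it too held no peak inside its span. c-Maf antibody library 3 had a peak of 7 tags 14.3 kb beyond its end, with a fold of 4.97 and a −log10 q of 0.85. An isotype library 3 peak of 3 tags lay 727 bp from it. Library 3 also had a peak of 4 tags 11.9 kb before the gene, with a fold of 3.26. Library 4 had none in the window. The isotype libraries had 4 and 1 peaks, with folds of 2.75 to 4.84, the highest of them 26.6 kb before the gene and 4547 bp from Havcr1, which encodes the related receptor TIM-1.

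Mfge8 (chromosome 7, 79133768 to 79149060), whose product links phosphatidylserine to integrins, had isotype peaks and no c-Maf antibody peak. Isotype library 3 had 4 peaks, with folds of 2.77 to 4.84, and isotype library 4 had 1, with a fold of 2.95. Of these 5 peaks, 2 lay inside Hapln3 and 1 inside Acan. None lay in Mfge8. The nearest c-Maf antibody peaks were 85.8 kb (library 3) and 102.1 kb (library 4) from the gene.

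Lrp1, on chromosome 10 at 127538157 to 127621148, had a peak of c-Maf antibody library 3 inside the gene, 16.6 kb from its start. It held 7 tags, with a fold of 4.60 and a rank at percentile 87.1 of its list, and the nearest isotype peak was 54752 bp away. The nearest peak of c-Maf antibody library 4 was 203421 bp away. Library 3 also had a peak of 6 tags 48.2 kb away, inside R3hdm2, with a fold of 4.43. Isotype library 3 had 1 peak in the window, of 4 tags, inside Stat6.

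Ranked within their own lists, the peaks of the replicates differed. The 12 peaks of c-Maf antibody library 3 had a median percentile of 71.6, from 2.64 to 99.8. The 5 peaks of c-Maf antibody library 4 ran from 13.5 to 34.2, all below the middle of their list. Isotype library 3 had a median percentile of 33.4, from 0.46 to 96.4, and isotype library 4 ran from 5.09 to 80.0. Only 2 of the 44 peaks passed a q-value of 0.05, both in c-Maf antibody library 3, at Mertk and in the Stab1 window. Over all protein-coding genes, 6.21% had a c-Maf antibody peak at that level within 50 kb and 2.25% had an isotype peak.

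**Figure D4:**
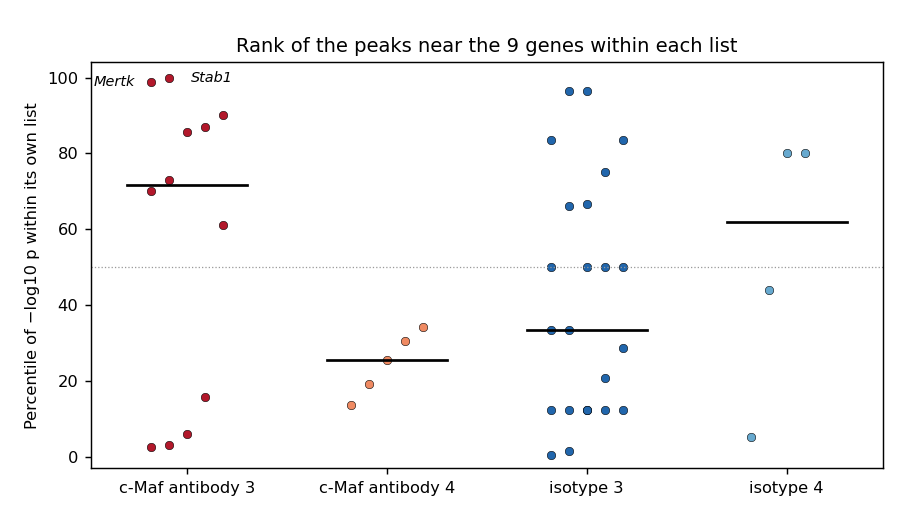
Percentile of the −log10 p of each peak near the 9 genes within its own list, by library, with the median as a black bar. The 2 named peaks, at Mertk and in the Stab1 window, passed a q-value of 0.05 and stand at percentiles 98.9 and 99.8 of c-Maf antibody library 3, while the 5 peaks of c-Maf antibody library 4 lie between 13.5 and 34.2.

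By place, 3 of the 17 c-Maf antibody peaks were inside a member gene, in Mertk, Pros1 and Lrp1. Counted as genes with a peak inside, these were 2 of 9 for library 3 (background 23.1%) and 1 of 9 for library 4 (17.6%), beside 2 for isotype library 3 (33.7%) and 1 for isotype library 4 (15.3%). A further 8 c-Maf antibody peaks were inside another protein-coding gene and 6 were outside all of them. Of the 27 isotype peaks, 4 were inside a member, 10 inside another gene and 13 outside. A window of 50 kb thus gathered peaks whose nearest gene was often a neighbour. At the edge of the window, the last peak taken in was an isotype peak 48.4 kb from Pros1, with a fold of 4.02. The first left out was a c-Maf antibody peak 50.5 kb from Stab1, with a fold of 4.55.

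The 75 other genes of apoptotic cell uptake were taken from 5 lists, all matched in the reference. A c-Maf-only region lay in the span or within 50 kb of 8 of them (10.7%, background 3.17%), and an isotype-only region of 0 (background 1.45%). Their median window was 128.2 kb, against 117.2 kb for all protein-coding genes. By list the 8 were 1 of 21 phagocytic receptors, 3 of 13 bridging molecules, 1 of 16 genes of engulfment signalling, 2 of 10 genes that shed or regulate the receptors and 1 of 15 genes of digestion and recycling. The 3 bridging molecules are C1qa, C1qb and C1qc, which lie side by side and share the same 2 regions, so the 8 genes have 7 regions. At p-values of 1e-05 or smaller 5 of the 75 genes, all among the 8, had a region (background 0.658%). At q-values of 0.05 or smaller 1 had, Itgb5 (background 0.320%). The lists were drawn up with results of these data known, and the C1q genes among them were known to have regions.

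Itgb5 encodes the integrin beta 5 chain, part of a receptor for the Mfge8 protein. The region inside Itgb5, at chr16:33922391-33922617, had 12 and 9 tags and folds of 7.67 and 6.11 in c-Maf antibody libraries 3 and 4, with a −log10 q of 5.05 and 1.97. Its value in library 4 was thus above that of the Mertk region by all of these measures. Near Ctsd, which encodes the lysosomal protease cathepsin D, a region 10.2 kb away had folds of 4.87 and 6.54 and a −log10 q of 0.87 and 2.53. The C1q regions, at chr4:136886162-136886374 and chr4:136892952-136893110, had folds of 5.38 and 5.46 in library 3 and of 4.94 and 4.45 in library 4. The mean percentiles of −log10 p within the lists were 99.4 for the Itgb5 region, 96.1 for the Ctsd region and 92.8 and 91.8 for the C1q regions.

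The regions of the other 3 genes had lower mean percentiles, 79.4 at Rac1, 68.0 at Nr1h3 and 25.4 at Rxra. The region assigned to Rac1, a GTPase gene of the engulfing membrane, lay 29986 bp away inside Daglb, with folds of 5.54 and 3.95. Nr1h3 and Rxra encode the partners LXR alpha and RXR alpha, nuclear receptors through which Mertk is known to be induced. The region near Nr1h3 lay 3586 bp away inside Acp2, with folds of 4.55 and 4.02. The region inside Rxra, at chr2:27740232-27740294, had 6 tags in each library and folds of 3.41 and 3.46, at a −log10 q of 0.0 in both.

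**Figure D5:**
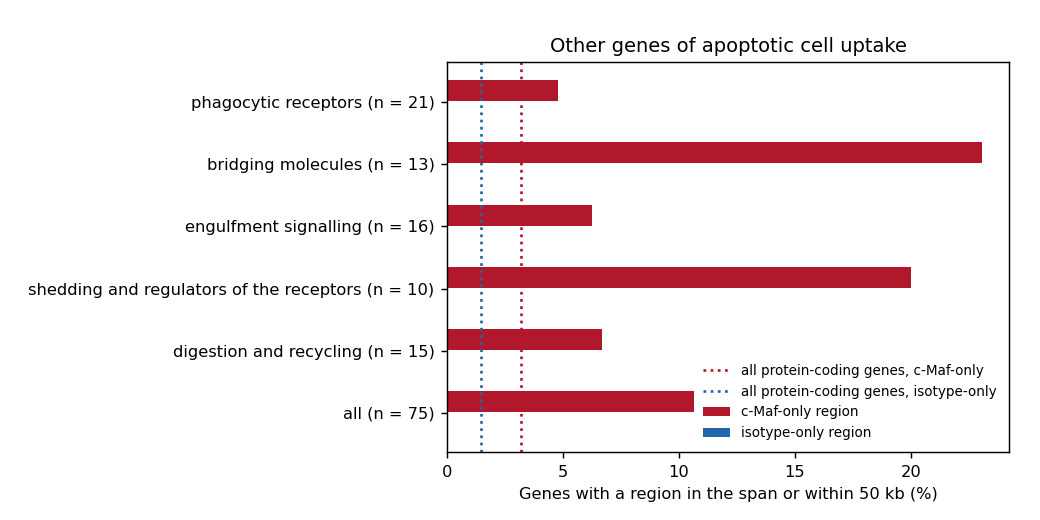
Percent of the genes of 5 further lists, and of all 75 together, with a c-Maf-only (red) or isotype-only (blue) region in the span or within 50 kb. Dotted lines give the share of all protein-coding genes, 3.17% and 1.45%. No listed gene has an isotype-only region, and the longest bar, of the bridging molecules, is the C1q genes alone.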

How the data were processed

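Each antibody library has its own deposited peak list, called per library with MACS 2.1.1.20160309 against the number 4 input, with a p cut-off of 0.01, 1 tag kept per position, and the larger library scaled down, per the file headers. The headers use the human genome size, and the effect of this on folds and p-values was not tested. The build is mm10 and MACS 1.4.2 and FastQC are also named, per the submitters' processing notes. As to the aligner, its name is not given in the sources used. The authors' pileup is the scaled coverage signal at the summit, and dividing by the scale gave whole tags within 0.02 for 100.0% of peaks. The deposited fold enrichment is a ratio to the input level that the caller used at the summit, with 1 added to both. Solving it for that level gave back the deposited −log10 p within 0.02 for at least 99.99% of each list. The level can be a genome-wide floor that depends on the genome size, and not a local count. Its lowest values near the members were 0.50 and 0.49 for c-Maf antibody libraries 3 and 4. For isotype libraries 3 and 4 they were 0.42 and 0.45. Peaks were ranked by the deposited −log10 p, and passed by the deposited −log10 q, each within its own list. Scores of different lists are given side by side with no test between them.

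Gene spans and promoters came from RefSeq tables of GRCm38.p6, which give no exons. Peaks overlapping by 1 bp or more were joined into regions with Python 3.11.15, pandas 2.3.3 and scipy 1.17.1, tested on simulated data. Poisson intervals cover counting error only. The members and the 5 further lists were chosen with earlier results of these data known. The named genes are all 9 members, every listed gene with a c-Maf-only or isotype-only region within 50 kb (up to 30), and neighbours that hold or lie nearer to a peak. Other thresholds, list lengths, windows, overlap rules and left-out libraries were tried.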

Additional observations from a re-analysis of the deposited data

How the results depend on the processing

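Peaks around the 9 genes, in the order c-Maf antibody 3 and 4 and isotype 3 and 4, numbered 4, 0, 2 and 2 at p of 1e-05 or smaller and 2, 0, 0 and 0 at q of 0.05 or smaller. At equal list lengths they numbered 8, 5, 5 and 4. They were 2, 1, 3 and 1 in the gene spans alone, 5, 3, 5 and 1 within 5 kb, 5, 3, 7 and 1 within 10 kb and 21, 9, 37 and 8 within 100 kb, by construction of the windows. Mertk was the member with a c-Maf-only region within 5, 10 and 100 kb, at equal list lengths and with summits within 200 bp. Its region began 3533 bp beyond the gene with summits 42 bp apart, so those windows and the summit rule kept it by construction. No member (0) had a c-Maf-only region at p of 1e-05, at q of 0.05, in the gene spans alone or at 50% reciprocal overlap. With 1 library left out, 1 to 6 members had a c-Maf-only region and 0 to 9 an isotype-only region. The ranges are wide because a lone list is not filtered by a replicate. The c-Maf-only count was 3 without c-Maf antibody 3 (53.0% of all genes) and 6 without c-Maf antibody 4 (65.8%). The isotype-only count was 4 without isotype 3 (46.7% of all genes) and 9 without isotype 4 (84.7%). Of the 75 other genes, 5 had a c-Maf-only region at p of 1e-05 (0.658% of all genes) and 1 at q of 0.05 (0.320%). In the spans alone 3 had one (0.946%), and at 50% reciprocal overlap 5 (1.88%). The count was 7 at equal list lengths (2.65%) and 9 with summits within 200 bp (3.57%). It was 6 within 5 kb (1.22%), 6 within 10 kb (1.48%) and 11 within 100 kb (5.33%). With 1 library left out, 8 to 53 of the 75 had a c-Maf-only and 0 to 59 an isotype-only region. The shares of all genes in those runs were 3.26% to 65.8% and 1.57% to 84.7%. With the number as a replicate block, the counts were 1 member and 8 other genes with a c-Maf-only region and 0 and 0 with an isotype-only region, so nothing changed. No label says that a number marks a shared animal or day. The ratio of peak density around the members to that of the chromosomes, 0.83 for the c-Maf antibody and 0.67 for the isotype (means of 2 libraries), was 0.76 and 0.65 over all gene windows. By library the chromosome ratios were 1.06 and 0.59 for c-Maf antibody 3 and 4, and 0.81 and 0.54 for isotype 3 and 4. Replicates of the same antibody thus differed more than the means did. The planned use of sequence around peak summits was not run: the sequence used here covers gene promoters, and no peak overlapped a member's promoter. Few tags per peak, 3 to 12 at the summit, limit every value.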
